A study of Homo sapiens with 6 samples.

Results

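The genes described here are 10 members of the cellular response to low oxygen, chosen by gene symbol from the gene table of HCT116 cells transfected with miR-8485 mimics: the HIF alpha genes HIF1A and EPAS1, the prolyl hydroxylase genes EGLN1 and EGLN3, and the non-glycolytic response genes VEGFA, ADM, CA9, NDRG1, BNIP3 and BNIP3L. All 10 were found among the 58735 genes listed, each in 1 row. Of the 10, 9 had a mean of at least 1 FPKM (fragments scaled by the length of the gene and the fragments of the library) over the libraries and were among the 12349 genes tested, and CA9 lay below that level.

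The study asked how miR-8485 acts on human colorectal cancer cells. HCT116, an established line from a human colorectal carcinoma, is labelled as wild type in every sample and was grown in DMEM with fetal bovine serum at an oxygen level that is not given in the sources used here. The CTR group holds 3 libraries of cells given a control transfection, whose sequence and dose are not given. The miR-8485 group holds 3 libraries of cells that received the mimic at 50 nM. Cells of both groups were harvested 48 h after transfection. The labels describe the libraries as independent biological replicates, the mature miRNA was not measured in these libraries, and HIF proteins were not measured either.

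HIF is a transcription factor made of an oxygen-regulated alpha subunit, encoded by HIF1A or EPAS1, and a constant partner, encoded by ARNT. With oxygen present, prolyl hydroxylases of the EGLN family mark the alpha subunit, the VHL ubiquitin ligase binds the mark and the protein is degraded. When oxygen is short the alpha subunit persists and binds short response elements with a core such as ACGTG. It raises genes for blood vessel growth, glycolysis, pH control and removal of mitochondria, and also EGLN1 and EGLN3. The alpha subunit is thus controlled mainly as a protein, and the levels given here are of RNA only.

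The mimic and the places where its seed can pair are shown first, because the seed, bases 2 to 8 of a miRNA, is the part that most often pairs with 3′ UTRs. The sense strand given for the mimic is 17 bases long and was found within the annotated MIR8485 hairpin. In the lines that follow, capitals mark the seed in the mimic and the matching TGTGTGT in the transcripts, which are 3′ UTR windows of GENCODE canonical transcripts on GRCh38, written 5′ to 3′ on the gene's strand.
miR-8485 mimic: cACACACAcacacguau
EPAS1, chr2:46386464-46386492, plus strand: atttgatttccTGTGTGTgttgccctggc
EGLN3, chr14:33925736-33925764, minus strand: catccctgtctTGTGTGTggtacttcatg
VEGFA, chr6:43785647-43785675, plus strand: ggagacctggtTGTGTGTgtgtgagtggt
VEGFA, chr6:43786127-43786155, plus strand: caacttgtattTGTGTGTatatatatata
BNIP3, chr10:131968199-131968227, minus strand: actagtcatgaTGTGTGTtgtattttaaa
The canonical 3′ UTR of EPAS1 (2037 bases) held 2 overlapping copies in a single TG run, that of VEGFA (1925 bases) held 3 overlapping copies and 1 separate copy, and those of EGLN3 (1664 bases), BNIP3 (840 bases) and BNIP3L (2715 bases) held 1 copy each. HIF1A (1173 bases), EGLN1 (2655 bases), ADM (756 bases), CA9 (134 bases) and NDRG1 (1703 bases) held none. For comparison, 28.9% of the 10671 tested genes with a canonical 3′ UTR held at least 1 copy, in UTRs with a median length of 1287 bases. The copy in EGLN3 depends on the transcript, since its longest annotated 3′ UTR (2073 bases) held 0 copies. The window around the copy in BNIP3L is not printed here. A match of letters is a description and not a shown binding site.

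Promoters were searched for ACGTG, a form of the response element core, on either strand. CACGT is its reverse complement, and both overlap in CACGTG. Other forms of the core were not searched. The sequences were RefSeq promoters of GRCh38.p14, which run from 250 bases before to 50 bases after the start that RefSeq gives for a gene. These starts can lie well inside the spans that the gene table lists, as for EGLN1, EGLN3 and EPAS1, and the listed outer starts were not searched. Of the 10 genes, 7 matched this table, and VEGFA was among those that did not. The windows are shown because EGLN1, CA9 and BNIP3 were the members that held the word, and capitals mark it.
EGLN1, chr1:231422276-231422320, minus strand: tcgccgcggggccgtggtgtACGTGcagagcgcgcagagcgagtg
CA9, chr9:35673890-35673934, plus strand: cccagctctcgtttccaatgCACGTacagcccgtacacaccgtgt
BNIP3, chr10:131982033-131982077, minus strand: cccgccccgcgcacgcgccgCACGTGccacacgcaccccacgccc
The word began at position -13 from the start in EGLN1 and -18 in CA9, and BNIP3 held it on both strands at -134 and -133. HIF1A, EPAS1, EGLN3 and ADM held none in this window. Among all 27305 promoters 21.6% held the word, and among the 8766 promoters of tested genes 27.6% did.

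The libraries held between 17473874 and 18480047 fragments on listed genes. Of the 8 intestinal epithelial markers checked, 7 had a mean of at least 1 FPKM, with VIL1 near 0, and their summed level was 2614 to 2839 FPKM in CTR and 1753 to 1840 FPKM in miR-8485. Of the 4 endothelial markers and the 5 leukocyte markers 0 reached a mean of 1 FPKM, and of 5 fibroblast markers 1 did (COL1A1), with a summed level of 4.26 to 4.51 FPKM in CTR and 6.32 to 6.50 FPKM in miR-8485 and DCN at 0. The part of these epithelial and fibroblast markers in the results was not tested. Because each library pools many cells, fewer cells with a transcript and less of it per cell cannot be told apart. FPKM are shares of a library, so amounts per cell were not measured.

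Much of the transcriptome differed between the groups, so counts are read beside the share of all tested genes. Fold changes are of log2(FPKM + 0.1), miR-8485 against CTR, and adjusted p-values are from limma with Benjamini-Hochberg adjustment over all genes of the fit, called under 0.05. In miR-8485, 8 of the 9 tested members were called lower, against 30.5% of all tested genes, and 0 were called higher, against 29.1%. For the same 8 genes every miR-8485 library lay below every CTR library, which held for 34.0% of tested genes. The median log2 fold change of the 9 was -0.72 beside -0.0041 for all tested genes, and the members ranged from -1.34 (EPAS1) to -0.06 (BNIP3L). CA9, in the fit of all 31768 genes above 0, where 11.3% were called lower, was not called. Rescaling to TPM moved the median of all genes to -0.12 and the share of called genes that were lower from 51.2% to 64.4%, and under it the 8 members and BNIP3L were called lower.

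**Figure D1:**
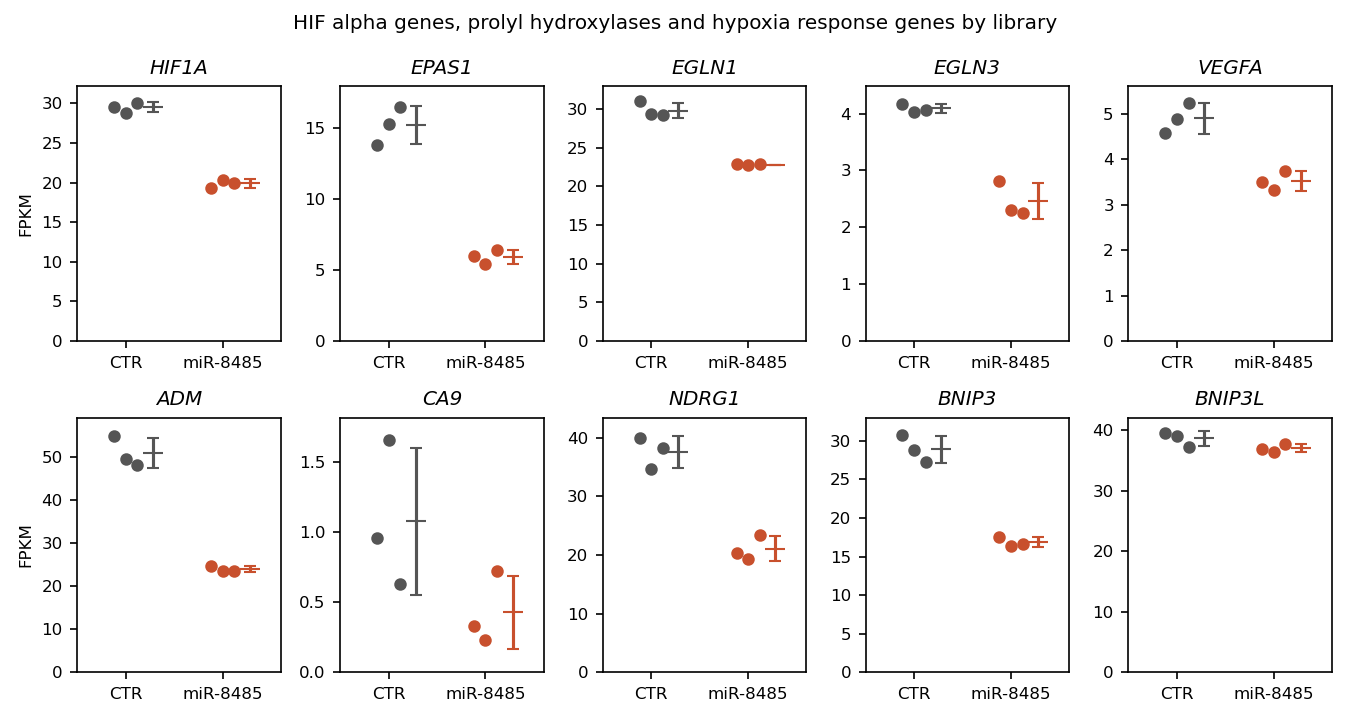
FPKM of the 10 genes in each of the 3 CTR and 3 miR-8485 libraries (points, y axis from 0 in each panel), with the mean and SD of each group beside them. The miR-8485 points lie below all CTR points in 8 panels, and the groups overlap for CA9 and BNIP3L.

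Both HIF alpha genes fell in miR-8485, EPAS1 with the larger fold change. HIF1A (chr14:61695513-61748259, plus strand), which encodes the alpha subunit present in most cell types, was at 29.6, 28.8 and 30.1 FPKM in CTR and at 19.3, 20.3 and 20 FPKM in miR-8485. The 2 groups were narrow and well apart, at 29.5 ± 0.634 against 19.9 ± 0.541 FPKM (mean ± SD, n = 3 each), so that the miR-8485 mean was 67.3% of the CTR mean. The log2 fold change was -0.57 (SE 0.04, 95% confidence interval -0.67 to -0.47, adjusted p = 3.6e-05), and between -0.59 and -0.55 with any 1 library left out. An antisense gene within its span, HIF1A-AS2, had means of 0.623 and 0.408 FPKM, and the strand setting of the counting is not given in the sources used here, so reads of the 2 genes cannot be told apart where they overlap.

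EPAS1 (chr2:46293667-46386703, plus strand), which encodes HIF-2 alpha, a paralog known from endothelium and kidney and from erythropoietin control, was at 13.8, 15.3 and 16.5 FPKM in CTR and at 5.98, 5.42 and 6.41 FPKM in miR-8485. Even the lowest CTR library was more than 2 times the highest miR-8485 library. The means were 15.2 ± 1.35 and 5.94 ± 0.494 FPKM, and miR-8485 stood at 39.0% of CTR. This was the largest fall among the tested members, with a log2 fold change of -1.34 (SE 0.09, interval -1.54 to -1.14, adjusted p = 1.7e-05), and 2.19% of tested genes had a lower value. The 4 endothelial markers summed to 0.151 to 0.297 FPKM in CTR and 0.143 to 0.260 FPKM in miR-8485, far below EPAS1 itself.

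The balance of the HIF alpha transcripts was compared as a ratio within each library. HIF1A was 2.14, 1.89 and 1.82 times EPAS1 per unit of length in the CTR libraries and 3.22, 3.74 and 3.13 times in the miR-8485 libraries. The ratio did not overlap between the groups and was higher by 0.79 on the log2 scale in miR-8485. Groups without overlap were common for single genes, with 4202 of the 12349 tested genes lower in miR-8485 and 4008 higher. How often ratios of other gene pairs do not overlap was not computed. With 3 libraries against 3, the exact two-sided permutation test can give no p below 0.1, and it gave 0.1 here (0.1 after adjustment over the 4 paralog pairs compared).

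**Figure D2:**
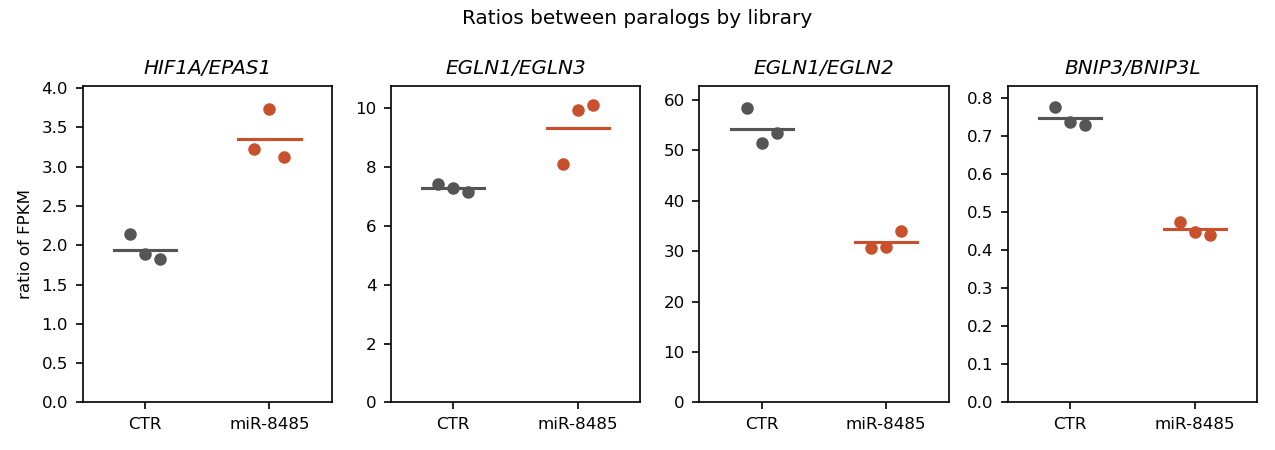
Ratio of FPKM between paralogs in each library (points, y axes from 0), with the group mean as a line, for HIF1A over EPAS1, EGLN1 over EGLN3, EGLN1 over EGLN2 and BNIP3 over BNIP3L. In each of the 4 panels the 3 miR-8485 libraries lie apart from the 3 CTR libraries, higher for HIF1A/EPAS1 and EGLN1/EGLN3 and lower for the other pairs. The share of other gene pairs that lie apart was not computed.

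The prolyl hydroxylase genes among the members, both HIF targets as well as HIF inhibitors, also fell. EGLN1 (chr1:231363751-231425044, minus strand) encodes PHD2, the main oxygen sensor of the family. It was at 31.0, 29.4 and 29.2 FPKM in CTR and at 22.9, 22.8 and 22.9 FPKM in miR-8485, and the miR-8485 libraries were nearly equal. The fall to 76.6% of CTR was the smallest of the 8 called members (log2 fold change -0.38, SE 0.04, interval -0.48 to -0.28, adjusted p = 0.00022), with 21.7% of tested genes lower.

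EGLN3 (chr14:33924231-34462774, minus strand) encodes PHD3, the family member that hypoxia raises most strongly in many cells. Its level was low, at 4.17, 4.03 and 4.07 FPKM in CTR and 2.82, 2.30 and 2.25 FPKM in miR-8485. The CTR libraries were close together, and 1 miR-8485 library stood above the other 2 without reaching CTR. The means of 4.09 ± 0.0724 and 2.46 ± 0.316 FPKM gave a log2 fold change of -0.72 (SE 0.10, interval -0.95 to -0.49, adjusted p = 0.00057), and leaving out 1 library gave -0.82 to -0.66. The listed span of EGLN3 also holds SPTSSA on the same strand, a gene for a subunit of serine palmitoyltransferase, with means of 17.2 and 18.6 FPKM.

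The third gene of the family, EGLN2 (PHD1), was far lower, with means of 0.550 and 0.718 FPKM and no call (log2 fold change 0.33, SE 0.20, adjusted p = 0.332 in the fit of all genes above 0), although its 3 miR-8485 libraries lay above its 3 CTR libraries. EGLN2 was past the threshold under 1 alternative, eBayes without a variance trend (adjusted p = 0.045). Its span overlaps the readthrough gene RAB4B-EGLN2 and the gene AC008537.1, both on the same strand and listed at 0. How reads shared by overlapping genes were counted is not given in the sources used here. The level of EGLN2 may thus be too low, which would also affect the sum, shares and EGLN1/EGLN2 ratio that follow. Summed over the 3 genes, the hydroxylase transcripts went from 33.8 to 35.7 FPKM in CTR to 25.8 to 26.4 FPKM in miR-8485. EGLN1 made up 86.3% to 88.7% of that sum in every library, and the share of EGLN3 went from 11.7% to 12.0% in CTR to 8.74% to 10.7% in miR-8485. The EGLN1/EGLN3 ratio was 7.44, 7.29 and 7.17 in CTR and 8.10, 9.93 and 10.1 in miR-8485, a difference of 0.36 on the log2 scale. The EGLN1/EGLN2 ratio was 58.4, 51.4 and 53.4 in CTR and 30.7, 30.9 and 34.1 in miR-8485, a difference of -0.77, and both ratios had the smallest p the exact test can give (p = 0.1).

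The other genes that set HIF activity were called in both directions. Of 17 partners and oxygen sensing genes listed beside the members, 15 were tested, and 7 were lower (46.7%), 4 higher (26.7%) and 4 not called, with a median log2 fold change of -0.08, beside 30.5% lower and 29.1% higher of all tested genes, so that the share called higher was near that of all genes. HIF1AN, the asparaginyl hydroxylase that blocks coactivator binding, fell from 8.03 ± 0.242 to 6.0 ± 0.0865 FPKM (log2 fold change -0.41, SE 0.05, adjusted p = 0.00034). VHL, which recognises the hydroxylated alpha subunit, had means of 17.1 and 18.6 FPKM and missed the threshold (0.12, SE 0.05, adjusted p = 0.0517), passing it under 4 of 15 alternatives.

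ARNT, the constant partner of both alpha subunits, had means of 4.91 and 4.07 FPKM and was called lower (log2 fold change -0.27, SE 0.09, adjusted p = 0.0301). That call was lost without CTR library 1 or 2 or without miR-8485 library 1 or 2 (adjusted p = 0.063, 0.087, 0.091 and 0.081), and also with the gene length trend removed (0.07). The coactivators that HIF recruits were called lower as well. EP300 (p300) fell from 3.96 to 1.75 FPKM (-1.12, SE 0.12, adjusted p = 0.00019) and CREBBP (CBP) from 3.92 to 2.62 FPKM (-0.56, SE 0.08, adjusted p = 0.00088). CITED2, which competes with HIF for these coactivators, rose from 27.8 to 48.2 FPKM (0.79, SE 0.06, adjusted p = 3.9e-05), and OS9, an endoplasmic reticulum lectin also described as a HIF1A-binding protein, rose from 18.0 to 21.9 FPKM (0.28, SE 0.05, adjusted p = 0.00254).

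The secreted factors VEGFA and ADM both fell, ADM to less than 50% of CTR. VEGFA (chr6:43770184-43786487, plus strand) encodes the main growth factor for blood vessels and is a classical HIF target. It was at 4.57, 4.89 and 5.25 FPKM in CTR and at 3.50, 3.32 and 3.75 FPKM in miR-8485, with no overlap. The miR-8485 mean was 71.9% of CTR (4.90 ± 0.344 against 3.52 ± 0.214 FPKM, log2 fold change -0.46, SE 0.08, interval -0.65 to -0.28, adjusted p = 0.00165). Its FPKM are divided by a listed length of 14431 bases, the longest of the 10, which lowers its level in FPKM. Length alone does not set its place, since in CTR only EGLN3 and CA9 had fewer fragments. Between 867 and 1372 fragments stood behind each value. The log2 fold change of VEGFA was -0.32 with the gene length trend removed and -0.38 with a pseudocount of 1, both past the threshold.

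ADM (chr11:10304680-10307397, plus strand) encodes adrenomedullin, a peptide that widens vessels. With 54.7, 49.5 and 48.1 FPKM in CTR it was the highest of the 10, above 93.7% of tested genes, and it was at 24.6, 23.5 and 23.5 FPKM in miR-8485. The groups were separated by a wide gap, 50.8 ± 3.45 against 23.9 ± 0.670 FPKM. The log2 fold change was -1.08 (SE 0.06, interval -1.22 to -0.95, adjusted p = 8.8e-06), and 4.01% of tested genes had a lower one.

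The related ligands and receptors were mostly too low to test in these cells. Of the 15 listed, 5 were tested, with 1 lower (20%), 2 higher (40%) and 2 not called, beside 30.5% and 29.1% of all tested genes. PGF, a VEGF family ligand, fell from 2.85 to 1.45 FPKM (log2 fold change -0.94, SE 0.15, adjusted p = 0.00136), while VEGFB, another family ligand, rose from 20.8 to 32.2 FPKM (0.64, SE 0.10, adjusted p = 0.00095). PAM, the enzyme that amidates adrenomedullin, was called higher at means of 28.5 and 31.5 FPKM (0.14, SE 0.05, adjusted p = 0.0361), but was at 0.03 after rescaling to TPM (adjusted p = 0.72). The call on PAM was also lost without CTR library 1 or 2 or miR-8485 library 2 or 3 (adjusted p = 0.068, 0.099, 0.11 and 0.12) and with eBayes without a variance trend (0.068). The VEGF receptor genes FLT1, KDR and FLT4 had means of at most 0.0727 FPKM, and the adrenomedullin receptor gene CALCRL was at 0.273 and 0.258 FPKM. NRP2, a coreceptor named after its values were seen, was lower in the fit of all genes above 0 (0.976 to 0.424 FPKM, -1.04, adjusted p = 0.012).

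CA9 (chr9:35673856-35681159, plus strand), the membrane carbonic anhydrase often used as a marker of hypoxia, was near the limit of detection. It was at 0.963, 1.66 and 0.629 FPKM in CTR and at 0.333, 0.232 and 0.723 FPKM in miR-8485, which rest on 29, 50 and 19 fragments and on 10, 7 and 23 fragments. The third miR-8485 library lay above the third CTR library, so the groups overlapped. The log2 fold change of -1.17 (SE 0.46, interval -2.30 to -0.05) had an adjusted p of 0.145, which ran from 0.036 (voom on recovered fragments, log2 fold change -1.34) to 0.354 over the alternatives. A pseudocount of 1 in place of 0.1 brought the log2 fold change of CA9 to -0.53. A difference in CA9 was thus not shown at this depth, and ARHGEF39, which overlaps it on the opposite strand, had higher means of 3.23 and 2.31 FPKM.

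Among genes that share the task of pH control with CA9, the called ones were lower. Of the 10 listed, 7 were tested, 5 were lower (71.4%), 0 were higher and 2 were not called, with a median log2 fold change of -0.45, beside 30.5% lower and 29.1% higher of all tested genes. CA2, a cytosolic carbonic anhydrase, fell from 40.5 ± 2.37 to 15.6 ± 0.770 FPKM (-1.37, SE 0.06, adjusted p = 4.1e-06). CA12, another membrane carbonic anhydrase and HIF target named after its values were seen, was at 0.431 and 0.0940 FPKM and lower in the fit of all genes above 0 (-1.45, SE 0.32, adjusted p = 0.0191). The call on CA12 was lost without CTR library 2 or miR-8485 library 1 or 2 (adjusted p = 0.052, 0.051 and 0.059) and with the replicate block (0.067).

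NDRG1 (chr8:133237171-133302022, minus strand), a stress response gene that hypoxia and metal chelation raise, was at 39.9, 34.6 and 38.2 FPKM in CTR and at 20.4, 19.4 and 23.5 FPKM in miR-8485. The highest miR-8485 library was well below the lowest CTR library. The means were 37.6 ± 2.71 and 21.1 ± 2.15 FPKM, or 56.2% of CTR (log2 fold change -0.83, SE 0.08, interval -1.03 to -0.63, adjusted p = 0.00013), and 7.13% of tested genes were lower. Of the 3 paralogs NDRG2, NDRG3 and NDRG4, 0 were called lower and 1 higher (33.3%), beside 30.5% and 29.1% of all tested genes. NDRG3 rose from 15.6 to 21.9 FPKM (0.49, SE 0.07, adjusted p = 0.00085). For NDRG2 the value was -0.09 (adjusted p = 0.338) and for NDRG4 it was -0.20 (adjusted p = 0.193). For both NDRG2 and NDRG4 every miR-8485 library lay below every CTR library, which held for 34.0% of tested genes.

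BNIP3 and BNIP3L encode related receptors of the outer mitochondrial membrane that mark mitochondria for autophagy, and BNIP3 was called lower while BNIP3L was not. BNIP3 (chr10:131966455-131982013, minus strand) was at 30.7, 28.8 and 27.2 FPKM in CTR and at 17.5, 16.4 and 16.6 FPKM in miR-8485, with no overlap. It fell to 58.3% of CTR (28.9 ± 1.76 against 16.9 ± 0.609 FPKM, log2 fold change -0.77, SE 0.06, interval -0.91 to -0.64, adjusted p = 3.2e-05). BNIP3 has many listed pseudogenes, of which BNIP3P11 was the highest at means of 0.787 and 0.936 FPKM, and an antisense gene, AL162274.2, at 0.945 and 0.272 FPKM.

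BNIP3L (chr8:26382898-26505636, plus strand), also known as NIX, was at 39.6, 39.1 and 37.3 FPKM in CTR and at 36.9, 36.5 and 37.8 FPKM in miR-8485. The groups overlapped, with the third miR-8485 library above the third CTR library. Its log2 fold change was -0.06 (SE 0.04, interval -0.16 to 0.04, adjusted p = 0.256), so a fall of the size seen for BNIP3 lay outside the interval. After rescaling to TPM it was -0.18 (adjusted p = 0.031), against a median of -0.12 for all genes under that scaling. The BNIP3/BNIP3L ratio was 0.775, 0.738 and 0.730 in CTR and 0.475, 0.449 and 0.440 in miR-8485, lower by 0.72 on the log2 scale with no overlap (a difference of -0.72, exact permutation p = 0.1, the smallest possible).

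Other genes of mitophagy, the removal of mitochondria by autophagy, mostly went up or were not called. Of the 11 listed, 9 were tested, 6 were higher (66.7%), 1 was lower and 2 were not called, with a median log2 fold change of 0.29, beside 29.1% higher and 30.5% lower of all tested genes. Under TPM 3 of the 9 were higher and 2 lower, beside 2613 higher and 4725 lower of all 12349. BCL2L13, another mitophagy receptor, rose from 5.70 to 9.17 FPKM (log2 fold change 0.68, SE 0.06, adjusted p = 7.6e-05). GABARAPL1, a gene for an autophagosome membrane protein, fell from 12.9 to 9.51 FPKM (-0.44, SE 0.07, adjusted p = 0.00122). Its relative GABARAP was called higher at means of 1.39 and 2.29 FPKM (0.65, SE 0.20, adjusted p = 0.022), a call lost after TPM rescaling (adjusted p = 0.051), with the gene length trend removed (0.05) and without CTR library 1 or 2 or miR-8485 library 2 or 3 (0.053, 0.062, 0.066 and 0.072).

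**Figure D3:**
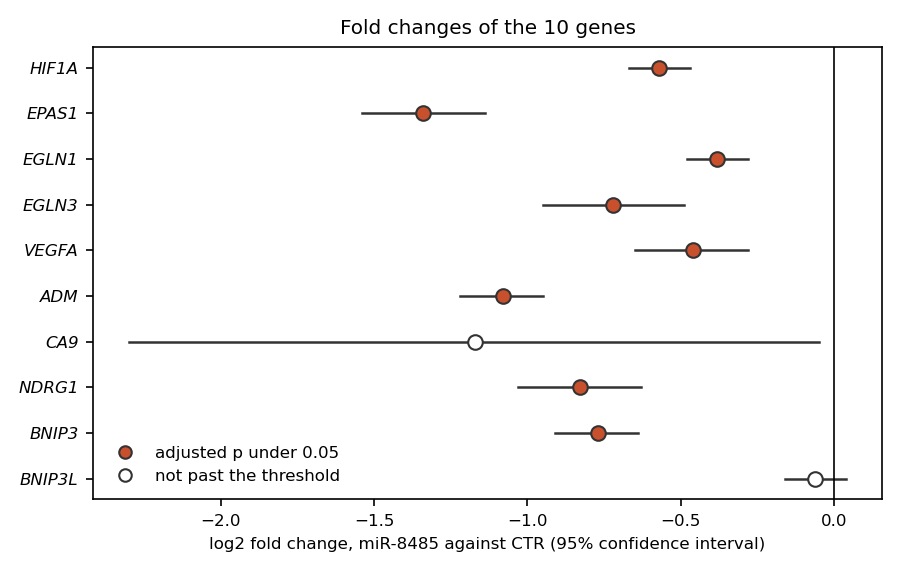
Log2 fold change of each of the 10 genes, miR-8485 against CTR, with its 95% confidence interval (x axis); filled points have an adjusted p under 0.05. EPAS1 at -1.34 and ADM at -1.08 are the lowest filled points, the interval of CA9 is by far the widest, and that of BNIP3L crosses 0.

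Beyond the members, most other HIF targets on the lists were lower as well, beside 30.5% lower and 29.1% higher among all tested genes. All lists were chosen with earlier results of these data known, so their counts are not independent support for the fall of the members. Of 34 other non-glycolytic targets 25 were tested, with 19 lower (76.0%), 4 higher (16.0%) and 2 not called, and a median log2 fold change of -0.42. ANGPTL4, a secreted inhibitor of lipoprotein lipase, fell from 85.4 ± 10.6 to 25.7 ± 2.79 FPKM (-1.73, SE 0.11, adjusted p = 1.5e-05), and BHLHE40, a transcriptional repressor of the clock and stress responses, fell from 46.1 to 15.4 FPKM (-1.57, SE 0.06, adjusted p = 3.1e-06). In the other direction, HMOX1, heme oxygenase, rose from 24.8 to 35.4 FPKM (0.51, SE 0.04, adjusted p = 5.7e-05). MIR210HG, the host gene of the hypoxia miRNA miR-210, rose from 5.03 to 7.73 FPKM (0.62, SE 0.17, adjusted p = 0.0139), with an adjusted p of 0.0504 without miR-8485 library 1. Among the 9 targets below the filter, CA12 and CXCR4, a chemokine receptor named after its values were seen, were lower (CXCR4 -1.23, adjusted p = 0.00342). These calls are from the fit of all genes above 0, where 11.3% were called lower.

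Of the 21 glycolytic targets all were tested, with 15 lower (71.4%), 2 higher (9.52%) and 4 not called, and a median of -0.37. ENO2, a neuronal enolase, fell from 32.2 to 13.1 FPKM (-1.29, SE 0.07, adjusted p = 8.2e-06) and PGAM1, phosphoglycerate mutase, from 346 to 167 FPKM (-1.05, SE 0.05, adjusted p = 4e-06). The glucose transporter SLC2A3 rose from 1.28 to 2.78 FPKM (1.06, SE 0.14, adjusted p = 0.00042) and the liver-type phosphofructokinase PFKL from 18.6 to 29.7 FPKM (0.68, SE 0.06, adjusted p = 7.4e-05). SLC16A3, a lactate exporter, is counted both here and among the pH genes, and CA12 both among the pH genes and the non-glycolytic targets.

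**Figure D4:**
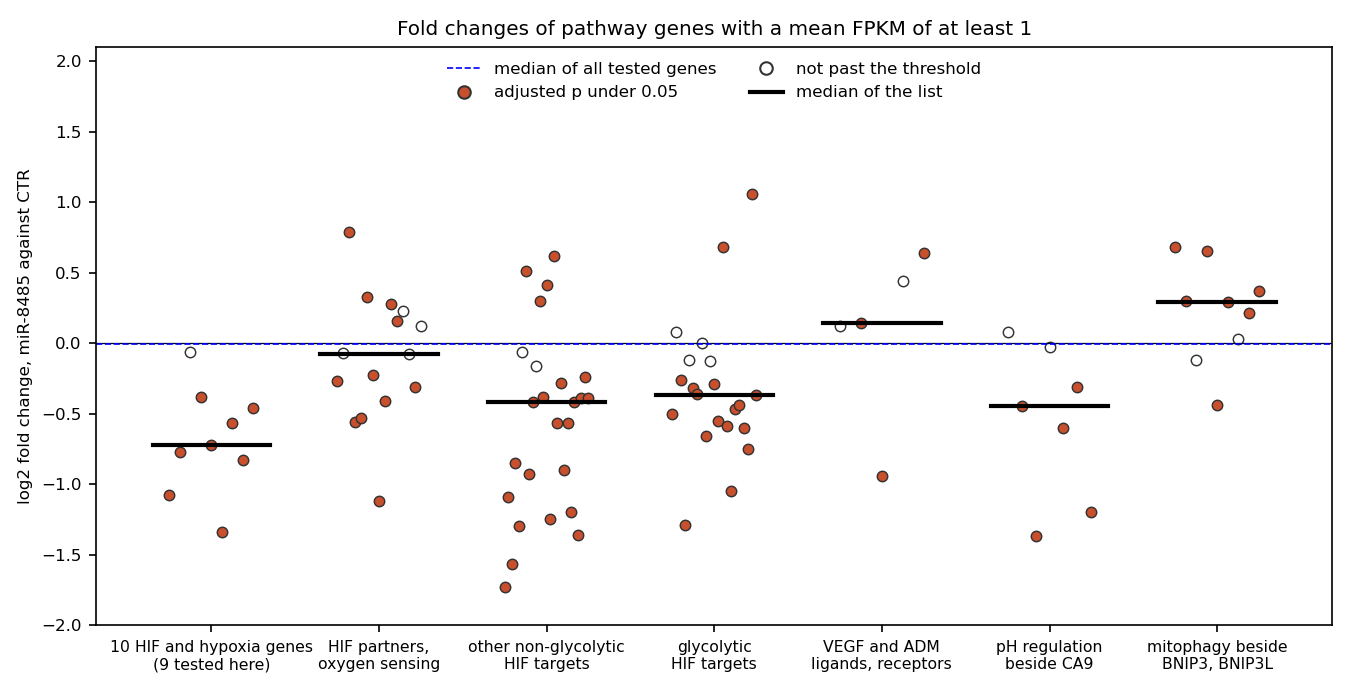
Log2 fold change of every tested gene in 7 lists (points, filled when the adjusted p was under 0.05), with the list median as a black bar and the median of all tested genes as a dashed line. The bars of the members (-0.72), the non-glycolytic targets (-0.42), the glycolytic targets (-0.37) and the pH genes (-0.45) lie below the dashed line, and that of the mitophagy genes (0.29) lies above it.

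Set beside the sequences shown above, members with and without the letters were both among those called lower. For comparison, 30.5% of all tested genes were called lower. Of the 5 members with a seed match in the canonical 3′ UTR, 4 were called lower and BNIP3L was not. Of the 5 without one, HIF1A, EGLN1, ADM and NDRG1 were called lower, and CA9 was not. Of the 3 members with the response element word in the promoter window, EGLN1 and BNIP3 were called lower, and of the 4 without it HIF1A, EPAS1, EGLN3 and ADM all were. With so few genes these are counts only, and no test was made on them. The share called lower among all tested genes with and without the letters was not computed. The counts therefore cannot show whether the letters make a difference.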

How the data were processed

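Transcript levels of HCT116 cells were measured by RNA-seq in 6 libraries. The authors trimmed reads, mapped them to hg38 with HISAT2 (version 2.0.5 in the submitters' notes), counted fragments per gene with featureCounts (1.5.0-p3) and deposited FPKM, which were used here. The study tested counts with DESeq2, and limma took its place because the deposited FPKM are not counts. Groups followed the labels, and all values above 0 were whole multiples of 1 fragment (within 0.02 fragments), from which fragments were recovered. Of 58735 genes, 31768 were above 0 and 12349 had a mean of at least 1 FPKM.

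limma 3.58.1 (R 4.3.3, variance trend) was fitted to log2(FPKM + 0.1) of those 12349 genes, two-sided, and members below the filter were taken from the same fit on all genes above 0. Paralog ratios were compared by exact permutation with Python 3.11.15 and scipy 1.17.1. The limma fit was checked on simulated data with 200 genes changed, as many up as down. Far more genes differ in the real data, so that check does not cover changes as wide as those seen here. Members and lists were chosen with earlier results of these data known. Named genes were the 10 members, ARNT, EGLN2, HIF1AN and VHL, and up to 2 with the largest rise and 2 with the largest fall of each list, past the threshold and without overlap, of which 1 is not reported here. 3′ UTRs came from GENCODE release 44 and promoters from RefSeq. Alternatives were pseudocounts of 1 and 0.01, no filter, a filter of 5 FPKM, median-of-ratios, TPM and quantile scaling, removal of a gene length trend, eBayes without a trend, a replicate block, voom, each library left out, 0.1 added before a ratio, and the longest 3′ UTR. Counting error limits low genes, and 1 FPKM of a short gene is few fragments.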

Additional observations from a re-analysis of the deposited data

How the results depend on the processing

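Over up to 17 settings a gene besides the reported one, 164 of 166 values of members kept their direction and their side of the threshold, 0 reversed and 0 were lost. The other 2 passed the threshold under 1 setting each, CA9 with voom (-1.34) and BNIP3L after TPM rescaling (-0.18). The count of members called lower was therefore 9 with voom and with TPM, 6 with the filter at 5 FPKM, where EGLN3 and VEGFA were not tested, and 8 under the rest. Replicate numbers did not pair the libraries: the correlations of same-numbered deviations were 0.07, 0.03 and -0.06, and replicate 1 alone matched its own number best. With the replicate block 3634 genes were higher and 3754 lower, and 8 members lower.

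Some list counts moved by more than 1.5 times. With the filter at 5 FPKM fewer genes were tested. Of 10 HIF partners 4 were lower, of 5 pH genes 3, and of 3 VEGF and ADM ligands and receptors 0. Of 19 glycolytic targets 1 was higher. PGF and SLC2A3 were not tested under that filter. After TPM rescaling 2 HIF partners and 3 mitophagy genes were higher and 2 mitophagy genes lower, the last also with the gene length trend removed. Of the VEGF and ADM ligands and receptors, 1 was higher after TPM rescaling, without a variance trend and with no filter. The same count was found without CTR library 2, miR-8485 library 2 or miR-8485 library 3. With no filter 14 of these genes were tested, and 2 were lower. Depth limits CA9, which rests on 7 to 50 fragments a library. The sequence and dose of the control transfection are not given in the sources used here, and 3 libraries a group allow no exact p below 0.1.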

Other observations

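Within the non-glycolytic targets, a group picked after the values were seen is that of the enzymes that modify and cross-link collagen. P4HA1 and P4HA2, subunits of collagen prolyl hydroxylase, fell by 0.28 and 0.90 on the log2 scale (adjusted p = 0.00303 and 1.8e-05). PLOD1 and PLOD2, lysyl hydroxylases, fell by 0.57 and 1.2 (adjusted p = 0.00017 and 1.6e-05), and LOXL2, a lysyl oxidase, fell from 13.6 ± 0.556 to 5.66 ± 0.382 FPKM (log2 fold change -1.25, adjusted p = 7.9e-06). LOX itself was at 0.429 and 0.394 FPKM and was not called (adjusted p = 0.825). Like the EGLN enzymes, the prolyl and lysyl hydroxylases need oxygen.

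Among the epithelial markers, KRT8, KRT18 and KRT19, keratins of simple epithelia, fell by 0.62, 0.97 and 0.58 on the log2 scale. CDX2, an intestinal transcription factor, rose from 16.0 ± 0.486 to 28.2 ± 1.18 FPKM (0.81, adjusted p = 1.4e-05), and KRT20, a keratin of differentiated intestinal cells, rose from 0.730 ± 0.191 to 2.02 ± 0.644 FPKM (1.33, adjusted p = 0.00578). EPCAM and CDH1 were not called, each with a log2 fold change of -0.05 (adjusted p = 0.55 and 0.378).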
